A study of Mus musculus with 8 samples.

Results

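The 756 sequences described here are small RNA reads that lie 1 substitution away from a tRNA fragment. Each carries no annotation in the deposited table, has the same length as a sequence annotated to a mature tRNA, differs from it at 1 base, and lies 1 substitution from no annotated miRNA. The annotated fragment is called the parent, and where several qualified (11 of the 756) the one with the most counts was taken. The 756 were found among 11568 distinct sequences, of which 9761 had no annotation and 868 a tRNA annotation. They belong to 162 parents, are 16 to 61 bases long, and hold 166252 counts in all. A further 7 sequences differed from a tRNA fragment only by an uncalled base and were left out.

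The libraries are small RNA libraries from MIN6B1 cells (MIN6 in the sample titles), a mouse insulinoma line used as a model of the pancreatic beta cell, in 4 groups of 2 libraries. Cells received either a control plasmid or a plasmid expressing HENMT1ΔC-T6B, a small RNA methyltransferase fused to a peptide that binds Argonaute proteins. They were kept for 24 to 72 hours after transfection with a lipid reagent (Lipofectamine), and the labels do not give the share of cells that took up plasmid. Total RNA of each kind was left untreated or oxidized with sodium periodate. Periodate attacks 3′ ends with free 2′ and 3′ hydroxyl groups, and a 2′-O-methyl group protects an end from it. The RNA was then made into libraries with a QIAseq miRNA kit from 5 ng of RNA. The labels do not say whether the libraries of a group came from separate cultures, so p-values measure only the spread between these libraries, which may be technical.

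Transfer RNAs are the most heavily modified RNAs of the cell, and their cleavage yields 5′ and 3′ fragments that enter small RNA libraries. Some modifications, such as 1-methyladenosine at position 58 of the T loop, 2,2-dimethylguanosine at position 26 and 1-methylguanosine at position 9 or 37, alter the edge of the base that pairs. Reverse transcriptase stops at such a base or copies it wrongly, so the read differs from the gene there. Others, such as a methyl group on the ribose of G18, leave the pairing edge free. A read with a substitution does not identify a modification by itself, and sequencing and copying errors give substitutions at any base.

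The sequences that follow are parents and members of the sites that hold most counts or respond differently to oxidation, written 5′ to 3′ as DNA, with the substituted base in capitals. Substitutions such as G17T give the parent's base, its position counted from 1 at the 5′ end of the fragment, and the base that was read. Positions in the tRNA follow the standard numbering, in which valine tRNA has no base at position 17, so that base 17 of its 5′ fragment is G18. The first set is the 5′ fragment of valine tRNA (anticodons AAC and CAC), read at G18 as any of the other bases, and read at G12 as C:
Val parent, 32 bases: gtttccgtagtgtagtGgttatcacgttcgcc
Val G17T: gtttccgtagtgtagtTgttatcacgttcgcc
Val G17A: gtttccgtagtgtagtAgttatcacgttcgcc
Val G17C: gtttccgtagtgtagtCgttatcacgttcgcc
Val G12C: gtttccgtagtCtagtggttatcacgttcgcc

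The second set shows sites where 1 base dominated the reading: the first anticodon base of Val-CAC, A58 in the T loop of Asp-GTC and Gly-CCC 3′ fragments that end in CCA, and base 6 of Gly-TCC in the acceptor stem.
Val-CAC parent, 54 bases: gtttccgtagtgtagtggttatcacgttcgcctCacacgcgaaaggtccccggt
Val-CAC C34G: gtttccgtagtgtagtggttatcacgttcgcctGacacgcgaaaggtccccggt
Asp-GTC parent, 41 bases: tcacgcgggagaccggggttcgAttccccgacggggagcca
Asp-GTC A23T: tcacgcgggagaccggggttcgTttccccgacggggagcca
Gly-CCC parent, 22 bases: tcgAttcccgggcggcgcacca
Gly-CCC A4T: tcgTttcccgggcggcgcacca
Gly-TCC parent, 53 bases: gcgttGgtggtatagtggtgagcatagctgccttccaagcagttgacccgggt
Gly-TCC G6T: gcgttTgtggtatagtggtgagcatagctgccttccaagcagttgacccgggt

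The third set shows a Lys-CTT and a Trp-CCA member whose counts were higher after oxidation of control RNA.
Lys-CTT parent, 54 bases: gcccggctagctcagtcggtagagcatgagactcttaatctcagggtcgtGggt
Lys-CTT G51C: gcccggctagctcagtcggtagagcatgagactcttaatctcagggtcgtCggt
Trp-CCA parent, 17 bases: tcacgtcggggtCacca
Trp-CCA C13T: tcacgtcggggtTacca

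The substitutions were interior in 702 members, at the last base in 51 and at the first base in 3. A last-base substitution is also what another base joined to a shorter fragment would give, and the 2 cannot be told apart. By the deposited column of genomic matches, 743 of the 756 members matched no place in the genome. Of the 93 parents that do not end in CCA, 91 had a genomic match, whereas only 7 of their 452 members did. CCA is added to tRNA after transcription, so a missing match says little for the 304 members whose parents end in it. Genomic positions of the tRNA genes were not analysed here, and the parents are shared by several gene copies of each tRNA.

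Valine tRNA gave 147 members and 54.6% of all member counts from 36 parents. Aspartate tRNA gave more members, 254 from 43 parents, but 15.9% of the counts. Lysine gave 122 members and 11.7% of counts, glycine 71 and 7.96%, and glutamate 52 and 3.46%. Leucine gave 40, tryptophan 22 and alanine 15, and 24 belonged to short fragments shared by glycine and valine tRNA. Arginine gave 4, serine 2 and glutamine 1, and 2 belonged to fragments shared by phenylalanine and serine tRNA. Relative to their parents, members ranged from 0.124% to 287% of the parent's summed count, with a median of 1.47%. For the 2789 sequences 1 substitution from a miRNA the median was 0.334%. The listing keeps only sequences with at least 10 counts in the 2 oxidized methyltransferase libraries together, so small percentages can be seen only beside abundant parents, and the 2 medians are not on equal terms. That minimum sits close to many members: 303 of the 756 were within 5 counts of it, and the lowest summed count of a member over all 8 libraries was 17.

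A position in the tRNA could be given to 624 members with 151286 counts. Positions 1 to 21, the 5′ acceptor strand and D arm, held 238 members and 53.0% of the member counts. The anticodon arm, 22 to 44, held 116 and 19.6%, the T arm from 49 to 65 held 128 and 10.3%, and the acceptor strand with CCA held 142 and 8.11%. Within these regions a few bases stood out, as the plot of members by tRNA position shows.

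**Figure D1:**
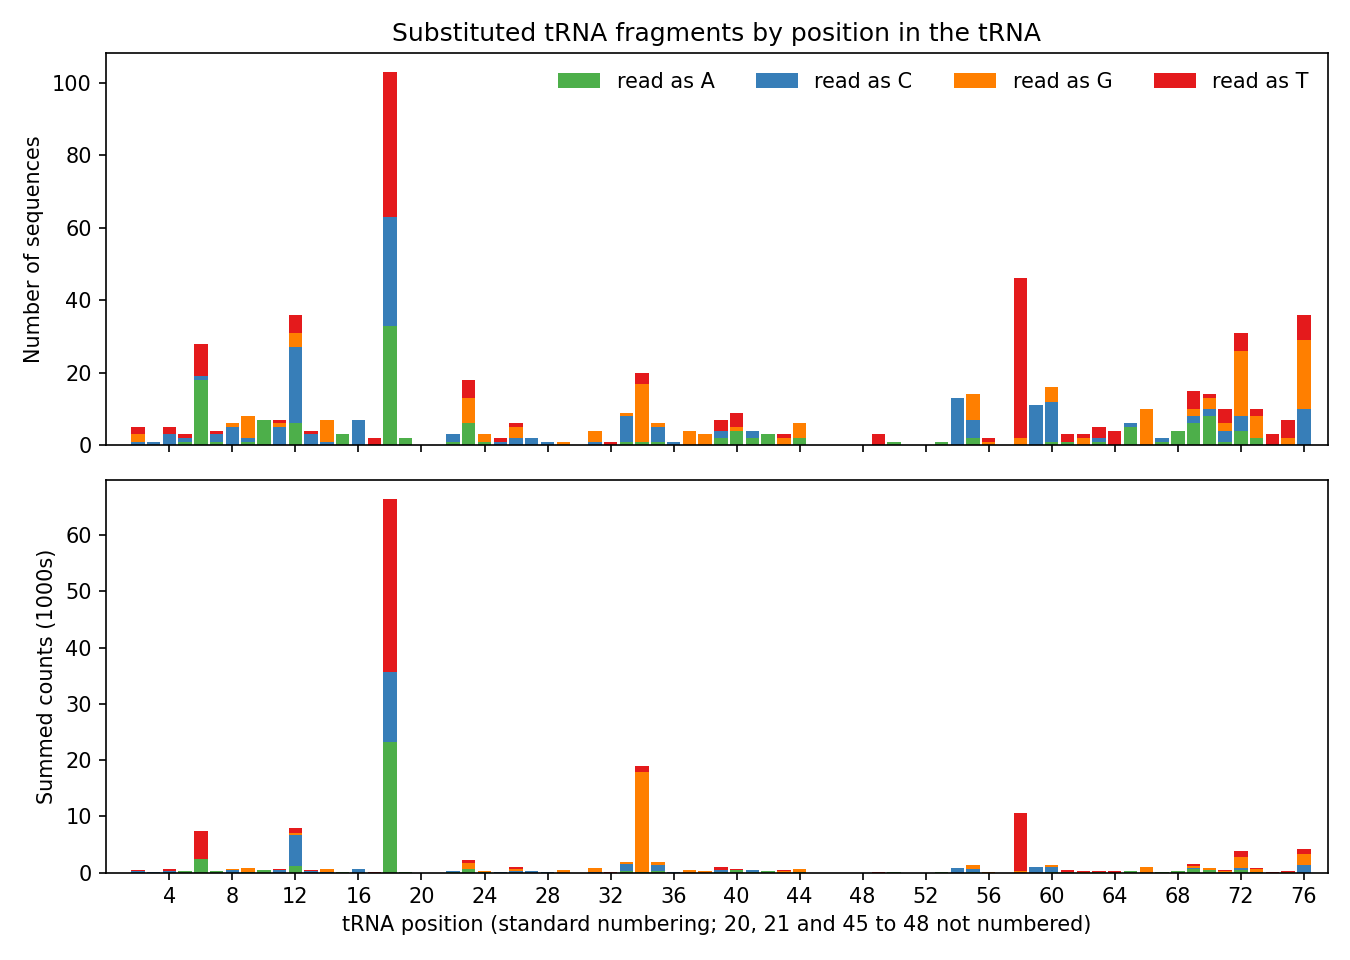
Members by standard tRNA position, as the number of sequences (upper panel) and as counts summed over the 8 libraries (lower panel), stacked by the base that was read. Position 18 is read as A, C or T, position 34 mostly as G and position 58 almost only as T; the 132 members without a position are not drawn.

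G18 in the D loop led by members and by counts. It had a member in 41 of the 73 parents that hold G18 as an interior base, and these carried 66321 counts. The next base, G19, which is as conserved and pairs with the T loop as G18 does, had a member in 1 of 72 parents. A58 had a member in 45 of its 51 parents, G6 in 25 of 34, C34 in 16 of 26 and G12 in 19 of 48. By contrast, T8 had one in 6 of 74 parents, G10 in 7 of 74 and G15 in 3 of 74. Parents overlap and share bases, so these are not independent trials.

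Among positions where a modification is known to disturb copying, A58 was the main one seen when bases were taken from the parents. The list held A9, G9, G26, C32, A34, G37, A37, A58, T20 and C20. Members lay at 57 of 225 listed parent bases, or 25.3%, and at 390 of 3601 other interior bases, or 10.8%. Without A58 the listed bases gave 12 of 174, or 6.90%. No parent held A34 or G37 as an interior base, and position 20 was not numbered, so no member could be assigned to A34, G37, T20 or C20. A34 is listed for inosine, which is read as G. Members read as G at C34 of Val-CAC may hold such reads of Val-AAC, as described with that site below. The 46 members at A58 carried 10623 counts, of which 10404 were read as T. All 6 members at A9 (aspartate, lysine and valine) and all 4 at A37 (aspartate, glutamate and lysine) were read as G, with 623 and 373 counts. G26 gave 2 members, both from 1 of the 30 parents with that base, and C32 gave 1, at the last base of a valine fragment. For these minor sites the substituted shares in non-oxidized control RNA were under those of A58: lysine A9 0.160% ± 0.0249 (SD, n = 2), aspartate A37 0.343% ± 0.191 and valine G26 2.02% ± 0.422.

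The leading sites also differed from the rest in the kind of change. Purine-to-purine and pyrimidine-to-pyrimidine changes made up 19.4% of the 144 members at valine G18, valine C34 and A58, and 68.0% of the other 612 members. Members at valine C34 were classed by their Val-CAC parents, as changes from C, and reads from Val-AAC would be classed otherwise. Among the miRNA neighbours the figure was 52.0%. Over all members the most frequent changes were G to A in 147, T to C in 120 and A to G in 114, while by counts G to T led with 39830, mostly at G18. These 3 sites together held 54.9% of the member counts.

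Valine G18 gave 81 members from 31 parents of 22 to 55 bases, with 62542 counts, and none of the 81 had a genomic match although all 31 parents did. T was read in 31 members with 29033 counts, A in 25 with 21652 and C in 25 with 11857. The substituted share is the substituted count as a percentage of substituted plus parent counts. In the non-oxidized control libraries it was 22.6% and 22.5%, in the oxidized control libraries 52.5% and 47.3%, in the non-oxidized methyltransferase libraries 29.0% and 28.7%, and in the oxidized methyltransferase libraries 40.7% and 41.9%. No 2 of the 4 groups overlapped. The Wilson 95% intervals of these 8 shares were at most 2.24 percentage points wide, and such intervals cover counting error only.

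The 32-base fragment shows the same site in single sequences. Its parent was counted 3167 and 5325 times in the non-oxidized control libraries, 3698 and 2744 in the oxidized control, 2591 and 7522 in the non-oxidized methyltransferase and 2651 and 2131 in the oxidized methyltransferase libraries. In the same order G17T was counted 434 and 854, 1650 and 1024, 494 and 1492, and 851 and 699 times. G17A followed with 331 and 558, 1462 and 886, 380 and 1244, and 602 and 529. G17C had 219 and 218, 1177 and 703, 282 and 410, and 415 and 362. The 3 together came to 4289 and 2613 counts in the oxidized control libraries, above the parent in the first and just below it in the second. In the non-oxidized libraries they stayed far below it, with the highest sum, 3146, beside 7522 parent counts in the second methyltransferase library.

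The G18 share differed between isotypes and anticodons. In non-oxidized control RNA it was 23.6% ± 0.190 (SD, n = 2) on the 32-base and 23.6% ± 0.0138 on the 33-base fragment, and over all AAC and CAC parents the mean lay between 8.94% and 36.3%. The 2 parents of Val-TAC, the remaining valine anticodon, had 4.03% ± 0.942 (SD, n = 2) and 5.57% ± 0.547. Shares by isotype, that of valine included, cover only parents with a listed G18 member, and readings that were not listed count as 0. In the same libraries the G18 share was 2.07% and 1.82% for aspartate and 0.962% and 0.556% for glutamate. It was 2.13% and 0% for a 20-base glycine fragment with 107 parent counts in the second library, and 0.20% in both libraries for lysine. All of these were below both values of the valine site, but the difference between isotypes was not tested.

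Base 34 of parents annotated to Val-CAC, the wobble base of the anticodon, was the second site by counts. A 33-base parent, which ends just before this base, is annotated to both Val-AAC and Val-CAC. A Val-AAC fragment that differs from Val-CAC only at base 34 would give the same read when its A34 is read as G. The 2 sources cannot be told apart here, so the share below may include Val-AAC fragments. It gave 17 members from 16 parents with 18181 counts, of which 17843 were read as G. The share was 42.2% and 40.3% in non-oxidized control, 38.7% and 39.2% in oxidized control, 41.1% and 37.4% in non-oxidized methyltransferase, and 45.5% and 45.3% in oxidized methyltransferase libraries. Of the 17 members 2 lie at the last base of a 34-base fragment, and the 15 interior ones hold 14058 counts. On the 54-base fragment C34G was counted 879 and 1210 times beside 1533 and 2396 parent counts in non-oxidized control RNA. In oxidized RNA it was counted 7 and 4 times beside 18 and 2 in the control and 20 and 19 beside 43 and 33 with the methyltransferase. Member and parent were thus both scarce after oxidation.

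The reading also varied with the length of the fragment. In non-oxidized control RNA the C34G reading made up 76.1% ± 2.32 (SD, n = 2) of the 42-base fragment and 49.4% ± 0.872 of the 35-base fragment, against 34.5% to 45.1% of the lengths 36 to 41, 43, 52, 54 and 55. The lengths 44 to 46, with at most 22 parent counts in a library, lay between 28.3% and 55%. The 42-base member, which ends 8 bases past the wobble base, was counted 364 and 907 times there, beside a parent at 125 and 260. These 2 lengths are also the only valine members that exceeded their parents in summed counts. All 5 other members above their parents lay at glycine A58.

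A58 divided glycine from aspartate. For 37 parents of Asp-GTC the A58 share was 8.07% and 5.90% in non-oxidized control, 3.69% and 6.76% in oxidized control, 6.38% and 6.20% in non-oxidized methyltransferase and 3.35% and 6.92% in oxidized methyltransferase RNA. For 7 glycine parents it was 70.0% and 47.5%, 26.5% and 51.6%, 43.5% and 46.4%, and 28.8% and 53.1%. Glycine lay above aspartate in every library. Within each oxidized group the first library was lower than the second for both isotypes, and oxidized and non-oxidized libraries overlapped. The Gly-CCC fragment of 22 bases shows this, with A4T counted 460 and 119 times beside a parent at 154 and 108 in non-oxidized control, and 148 and 232 beside 309 and 171 in oxidized control. All glycine parents at A58 and all but 2 of the aspartate parents end in CCA, and none of them matches the genome, whereas 2 of the glycine members do.

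G6 of glycine tRNA, in the acceptor stem, gave 15 members from 13 parents with 5541 counts, mostly read as T in Gly-TCC. Its share was 9.68% and 15.3% in non-oxidized control, 7.23% and 12% in oxidized control, 12.4% and 12.5% in non-oxidized methyltransferase and 6.44% and 13.7% in oxidized methyltransferase RNA. The groups overlapped. The 53-base G6T member was counted 667 and 1285 times before and 0 and 3 times after oxidation of control RNA, and its parent 2332 and 4557 times before and 8 and 4 times after oxidation. Lysine G6, with 7 members, was read as A at 1.82% ± 0.264 (SD, n = 2) before and 1.94% ± 0.109 after oxidation of control RNA. Base 6 was thus read as T in Gly-TCC and as A in lysine tRNA.

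G12 of valine tRNA, in the D stem, varied strongly between libraries of 1 group. Its share was 4.94% and 0.678% in non-oxidized control and 6.15% and 1.30% in non-oxidized methyltransferase RNA, against 20.2% and 14.8% in oxidized control and 9.46% and 8.95% in oxidized methyltransferase RNA. G12C on the 32-base fragment was counted 117 and 14, 692 and 333, 145 and 37, and 212 and 144 times. The oxidized libraries were above the non-oxidized ones with each plasmid, but in the test of single pairs described next 7 of 20 members at this site passed for the control plasmid, and G12C on the 32-base fragment did not (3.66 ± 1.42 on the log2 scale, adjusted p = 0.0788, edgeR's quasi-likelihood test).

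**Figure D2:**
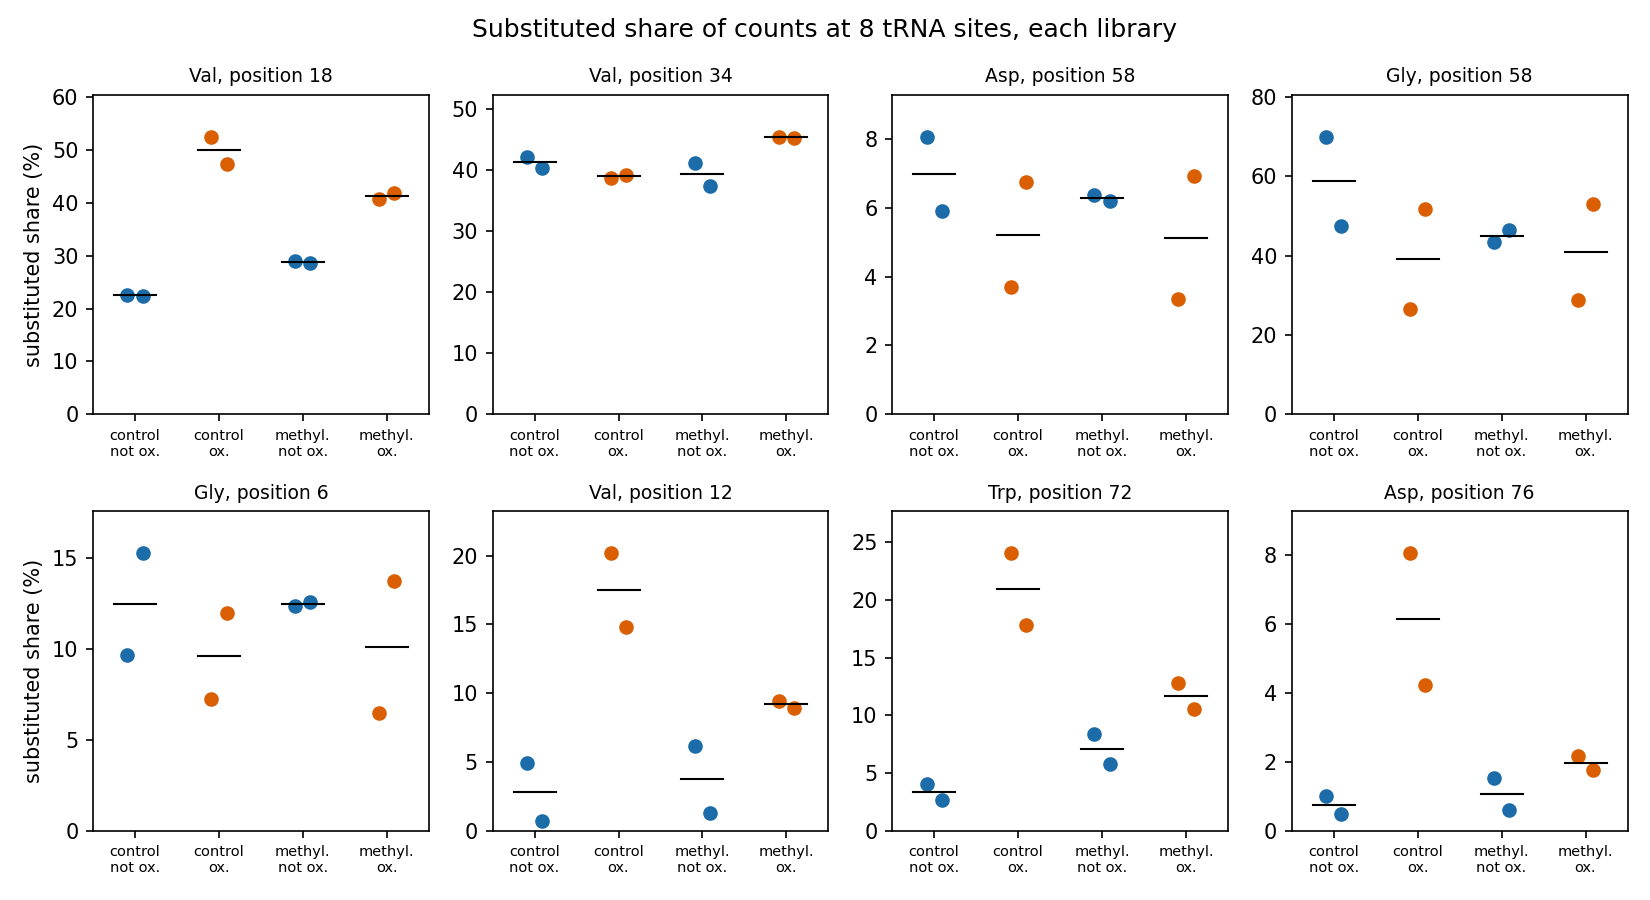
Substituted share in percent at 8 tRNA sites, with each point a library and each bar the mean of the 2 libraries of a group (blue not oxidized, orange oxidized). At valine 18, tryptophan 72 and aspartate 76 the oxidized control libraries are the highest of all, whereas at valine 34, both sites at 58 and glycine 6 they are not. Aspartate 76 is the last base of its fragments, so a base joined to a shorter fragment would look the same.

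The design asks first what oxidation does in cells without the methyltransferase. In control RNA most substitutions took a larger share of their fragment after oxidation. The substituted and the parent count were compared within each library by edgeR's quasi-likelihood test, which does not depend on how libraries are scaled, with Benjamini-Hochberg adjustment over 1869 pairs of a substituted sequence and its tRNA or miRNA parent. Of the 756 members 570 had enough counts to be tested. The share was higher after oxidation for 354 of them, or 62.1%, and lower for 5, against 37.3% higher and 0.696% lower over all pairs and 26.4% higher among the miRNA pairs. The median log2 change was 2.29 for the members, 2.25 for all pairs and 2.20 for the miRNA pairs, which are close to each other.

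Many members were scarce in non-oxidized control RNA, where 363 of the 756 had 3 counts or fewer in both libraries and 52 had none. Among the 357 tested members with more than 3 counts in a library of each group, 204 were higher and 3 lower, with a median of 1.97 on the log2 scale, or 3.91-fold. By the same minimum 400 of 588 pairs of both kinds were higher, with a median of 2.35, so the share of members called was here below that of all pairs, the opposite order to that over all tested pairs. Neither difference was tested. The first oxidized control library carried much of this result: without it 46 members were higher, of the fewer that could be tested, and without the second 251. The 2 oxidized control libraries were also the smallest, with 438363 and 295094 listed counts against 2446036 to 6641250 in the other 6. The beta-cell miRNAs miR-375-3p and miR-7a-5p, present in every library, had between 1424 and 2254 counts there and at least 33566 elsewhere. What these differences contribute to the higher shares was not tested.

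The sites differed in how many of their members passed. Valine G18 was higher in 62 of 74 pairs, with log2 changes of 1.46 ± 0.272 for G17T (adjusted p = 0.00924), 1.77 ± 0.275 for G17A (adjusted p = 0.00658) and 2.42 ± 0.434 for G17C (adjusted p = 0.00852) on the 32-base fragment. At the 3′ end of aspartate tRNA, A76 was higher in 16 of 26 pairs, A72 in 10 of 14 and, in the T loop, T55 in 10 of 14. A76 is the last base of its fragments, where another base joined to a shorter fragment cannot be told from a substitution. Tryptophan C72 was higher in 10 of 12: C13T on the 17-base fragment was counted 6 and 4 times before and 171 and 130 times after oxidation of control RNA, a log2 change of 2.78 ± 0.661 (adjusted p = 0.0178). Glycine C23 in the D stem was higher in 11 of 11, with shares of 2.52% ± 0.265 before and 11.9% ± 1.40 after oxidation. The sites T55, C72 and C23 were chosen after their values were seen.

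Elsewhere few or no members passed in that direction. Asp A58 was higher in 1 of 32 pairs and lower in 2, Val C34 higher in 0 of 14 and lower in 2, and Gly G6, Lys G6, Gly A58 and Val G26 had no call in 10, 5, 3 and 2 pairs. Their median log2 changes were -0.89 at Asp A58, -0.21 at Val C34, -0.11 at Gly G6, 0.23 at Lys G6, -1.24 at Gly A58 and -0.76 at Val G26. At the other listed positions all 3 pairs at lysine A9, 1 of 2 at aspartate A9, the pair at valine A9, both at glutamate G9, both at aspartate A37 and the pair at lysine A37 were higher, and the pair at glutamate A37 was not called (1.94 on the log2 scale). These 2 groups of sites were set apart after their values were seen, and the difference between them was not tested.

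The 5 members with a lower share were all at position 34 or 58, and 4 of them are given here. The Val-CAC member C34T, at the last base of a 34-base fragment, had 105 and 84 counts before and none after oxidation (adjusted p = 0.00851, edgeR's quasi-likelihood test). Its parent also fell, from 1798 and 1658 counts before to 79 and 146 after oxidation. C34G on the 42-base Val-CAC fragment went from 364 and 907 counts to 25 and 36, a change of share of -1.84 ± 0.479 on the log2 scale (adjusted p = 0.0232). A further 2 were A58 members of Asp-GTC, A21T on a 39-base fragment at -1.84 ± 0.514 (adjusted p = 0.0283) and A18T on a 36-base fragment at -1.74 ± 0.449 (adjusted p = 0.0227).

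**Figure D3:**
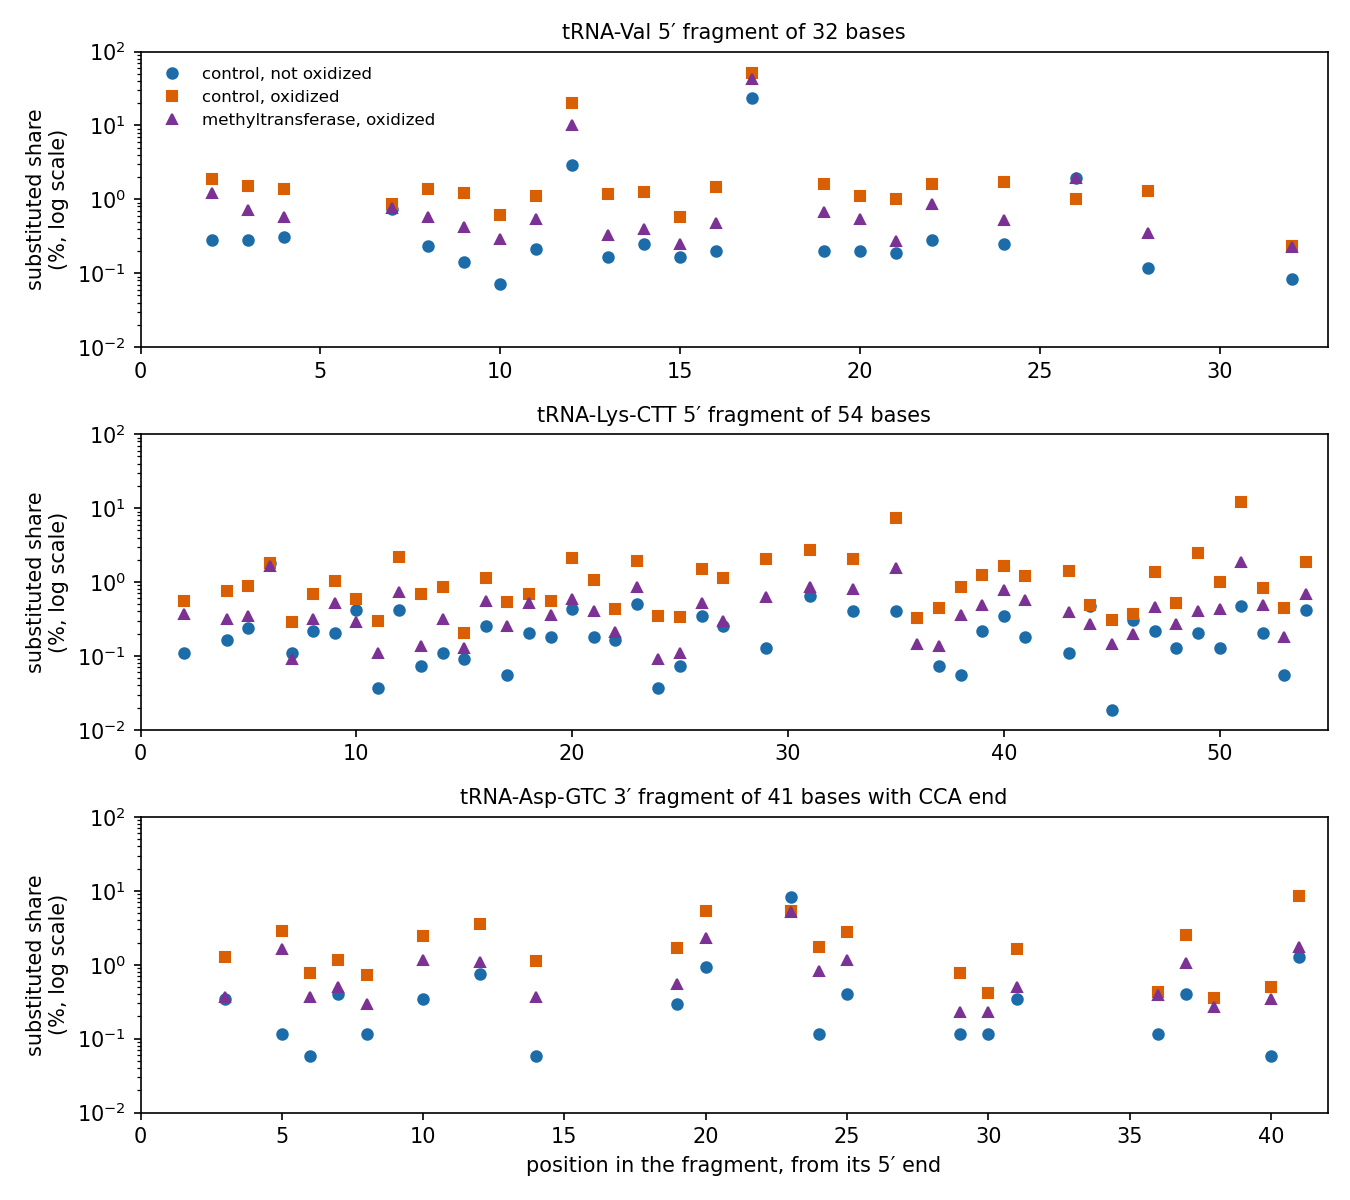
Substituted share, in percent on a log scale, at each position with a member, for 1 parent fragment per panel, pooled over the 2 libraries of a group (positions at 0 in a group are not drawn). Oxidized control RNA (orange) lies above non-oxidized control RNA (blue) at most positions, while at some the 2 are close or reversed. Among these are position 26 of the Val fragment, positions 6 and 44 of the Lys fragment and position 23 of the Asp fragment (A58).

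Profiles along single fragments show how general the shift was. The Lys-CTT fragment of 54 bases had 61 members at 47 positions, the most of any parent. Its pooled share per position had a median of 0.201% before and 0.858% after oxidation of control RNA, and of 0.233% before and 0.374% after oxidation of methyltransferase RNA. The highest position was base 6 in both non-oxidized groups, at 1.80% and 1.21%, and base 51 in both oxidized groups, at 12.1% and 1.85%. Base 51 rested on 1 library: G51C was counted 7 and 3, 771 and 91, 12 and 1, and 47 and 28 times, and the share of all members at that base was 18.4% in the first and 3.19% in the second oxidized control library. The site at base 51 was chosen after its values were seen. On the 32-base Val fragment the median over 22 positions was 0.223% before and 1.27% after oxidation of control RNA, with base 17 the highest in all 4 groups. On the 41-base Asp-GTC fragment the highest position in control RNA was A58, base 23, at 8.37% before oxidation. After oxidation of control RNA it was the final A, base 41, at 8.49%. That order came from the first oxidized control library, with 383 counts at base 41 and 194 at base 23, against 64 and 82 in the second. In methyltransferase RNA base 23 was the highest position both before and after oxidation, at 5.65% and 5.25%.

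With the methyltransferase plasmid no single pair passed. The share of 0 of 570 members passed in either direction at an adjusted p under 0.05, as for 0% of all pairs, and without adjustment 83 passed as higher and 3 as lower, beside 578 and 4 of all 1869 pairs. The median log2 change was 0.79 for the members and 0.94 for all pairs. Of the 416 members with more than 3 counts in both groups, 338 had a change above 0, as had 1574 of 1710 such pairs of both kinds. The members thus stood below all pairs in each of these counts of higher shares. The members had to reach their minimum in the oxidized methyltransferase libraries to be listed at all, which favours higher values there. At valine G18, whose members had to reach the same minimum, the share was higher in both oxidized than in both non-oxidized libraries, 41.3% ± 0.846 against 28.8% ± 0.203.

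**Figure D4:**
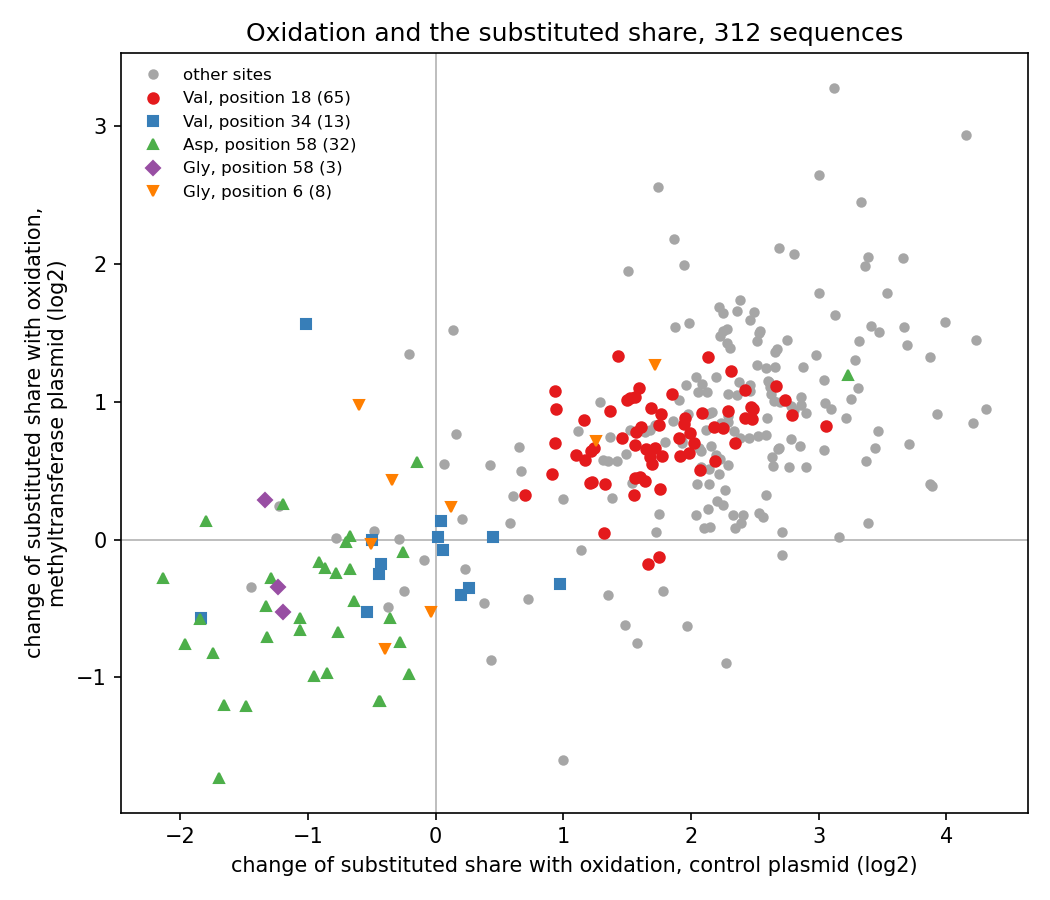
Log2 change of the substituted share with oxidation for 312 members with more than 3 counts in a library of every group, with the control plasmid on the horizontal axis and the methyltransferase plasmid on the vertical axis. Of these, 258 lie above 0 with the control plasmid and 252 with the methyltransferase plasmid; valine 18 lies to the upper right, and aspartate 58 lies mostly to the lower left. The axes share no libraries.

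The plasmids were compared next. In oxidized RNA the share with the methyltransferase was below that of the control in most members, with a median log2 difference of -1.0 over 570 pairs, near the -0.89 over all 1869 pairs, and no pair passed (0% of all pairs). Without adjustment 4 members were higher and 175 lower, beside 18 and 355 of all pairs. Among sites, Val G18 stood at 41.3% ± 0.846 against 49.9% ± 3.70, Trp C72 at 11.7% ± 1.61 against 21% ± 4.42 and Asp A76 at 1.95% ± 0.281 against 6.15% ± 2.71, while Val C34 was higher, 45.4% ± 0.138 against 39.0% ± 0.393 (SD, n = 2 each). Libraries of the 2 groups did not overlap at these 4 sites. The Val C34 value pools fragments of different lengths: on the 35-base fragment it was 75.3% ± 5.96 against 32.7% ± 5.42, whereas the median log2 difference over the 14 pairs of the site was -0.10. In non-oxidized RNA the share of no pair passed either (0% of all pairs; 21 members higher and 6 lower unadjusted, beside 133 and 6 of all pairs), and the median difference was 0.34 for the members and 0.51 for all pairs. Whether oxidation acted differently with the 2 plasmids was asked by a contrast added after the data were seen, and no pair passed it (0% of all pairs; 5 members higher and 122 lower unadjusted, beside 18 and 376 of all pairs).

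Over all members together, the substituted share of members plus parents was 19% ± 0.625 in non-oxidized control, 30.1% ± 2.81 in oxidized control, 21.4% ± 0.211 in non-oxidized methyltransferase and 18.9% ± 2.30 in oxidized methyltransferase RNA (SD, n = 2). Because Val G18, Val C34 and A58 hold so many counts and do not move alike, the same share without them was 5.63% ± 0.693, 23.1% ± 5.12, 6.31% ± 1.46 and 12.2% ± 1.07. With 2 libraries against 2 an exact test of 1 such value cannot give a p below 0.333, so none was used.

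Counts of the members themselves, rather than shares, depend on how libraries are scaled. Listed counts were 5387014 and 6641250 before and 438363 and 295094 after oxidation of control RNA. With the methyltransferase plasmid they were 3654639 and 4887022 before and 3100971 and 2446036 after oxidation. On TMM scaling, with 751 members tested among 9851 sequences by edgeR's quasi-likelihood test, oxidized control RNA held 469 members at higher and 28 at lower level than non-oxidized control RNA, against 18.4% and 46.4% of all sequences tested. Their median log2 change was 2.78, or 1.94 with members at 3 counts or fewer set to that floor, beside -1.14 and -0.87 for all sequences. Of their parents, 28 of 161 were higher and 24 lower. Every one of 22 tryptophan members and 104 of 122 lysine members were higher. Valine had 67 higher and 23 lower of 147. On TMM scaling G6T of the 53-base Gly-TCC fragment was at least 409-fold lower, against a floor of 3 counts per library. This bound holds for that scaling only, since total-count scaling moved the median of all sequences here from -1.14 to 3.20.

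The same fit gave fewer member calls elsewhere. Between oxidized methyltransferase and oxidized control RNA 6 members were higher and 117 lower, against 42.3% and 3.92% of all sequences, with medians of -1.07 and 0.82. Of the 6, C34G on the 35-base Val-CAC fragment had 46 and 45 counts with the control and 403 and 159 with the methyltransferase plasmid (2.63 ± 0.474 on the log2 scale, adjusted p = 6.78e-04). Of the 117, Lys G51C was the most strongly lower, at -3.26 ± 0.893 (adjusted p = 0.00922). With the methyltransferase plasmid oxidation gave 31 members higher and 26 lower, against 1.77% and 11.2%. The signed log2 change with oxidation was higher with the methyltransferase than with the control plasmid in 4 members and lower in 55, against 39.6% and 3.0% of all sequences, in the added contrast. A higher signed change can be a smaller loss. Between plasmids in non-oxidized RNA 0 members passed, as did 0% of all sequences (26 higher and 11 lower unadjusted), and DESeq2 also called none. Total-count scaling moved the median of all sequences from -1.14 to 3.20 in the control oxidation contrast, and from 0.82 to -2.17 between the oxidized plasmids. The members lay above all sequences in the former and below them in the latter on either scaling. By the authors' deposited table, higher values were given for 6 members and lower ones for 40 in oxidized methyltransferase than in oxidized control RNA, beside 5344 and 115 of all 11568 sequences.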

How the data were processed

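Each of the 8 libraries is a column of whole-number read counts per distinct sequence in the table the authors deposited, per the file headers. Per the labels' protocols, 5 ng of RNA went into the QIAseq miRNA kit, whose chemistry includes molecular identifiers. Trimming, use of the identifiers, aligner and genome build are not given in the sources used here. The listing holds sequences with at least 2 counts in each and 10 in both oxidized methyltransferase libraries together, so its column totals (295094 to 6641250) are not library depths. The sign of the authors' deposited fold change, a score here, and the deposited adjusted p-value were used for the authors' own comparison only. Their normalized signal, deposited beside the counts, was not used.

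Repeated lines (12608 in all) were merged to 11568 sequences. Members, parents and lists were chosen with earlier results of these data known. tRNA positions came from the CCA end (final A at 76) for positions 49 to 76, and from the anticodon named in the annotation, with T at 8 and A at 14, elsewhere. This second numbering was added after the data were seen.

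Levels were fitted with edgeR 4.0.16 (TMM, filterByExpr, 9851 sequences, Benjamini-Hochberg). The pair test fitted substituted and parent counts of each library together, for 1869 pairs with at least 10 counts in every library and 50 substituted counts in all. On simulated data with 200 changed sequences at 8-fold, 180 were tested and 96 recovered for oxidized methyltransferase against oxidized control (9851 sequences), with 4 false calls. With 4-fold changes in 200 of 1869 pairs, 43 were recovered, and 30 of the 40 with at least 10 substituted counts in both groups, with 2 false calls. An absent call in the pair test therefore says little. Described by name were the 10 members with most counts, the 5 sites with most members and the 5 with most counts, listed positions, and the strongest calls per comparison; sites chosen otherwise are marked in the text. Alternatives were DESeq2 1.42.0, other scalings and filters, a replicate block and leaving out each library. One member that the naming rule selects is not reported here.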

Additional observations from a re-analysis of the deposited data

Results flagged for a closer look

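The signed log2 change of level with oxidation was lower in 55 members, and higher in 4, with the methyltransferase plasmid than with the control plasmid, by edgeR's interaction contrast with Benjamini-Hochberg adjustment over all 9851 sequences, against 3.0% and 39.6% of all sequences in those directions. The contrast was added after the data were seen. Among the members with the lower value were 15 of 252 from aspartate, 11 of 147 from valine, 10 of 22 from tryptophan and 9 of 122 from lysine tRNA. Total-count scaling gave 0 members higher and 578 lower in this contrast. On TMM scaling, those with the higher value fell less with the methyltransferase plasmid. They include the member C34T of the 34-base Val-CAC fragment. With the control plasmid it went from 105 and 84 counts to 0 in both libraries, and with the methyltransferase plasmid from 56 and 82 to 8 and 3. The listing needs at least 10 counts in the 2 oxidized methyltransferase libraries together, so no listed member can be at 0 in both. Listed counts were 438363 and 295094 in oxidized control and 3100971 and 2446036 in oxidized methyltransferase RNA. On TMM scaling C34G of the 35-base Val-CAC fragment changed by -3.53 on the log2 scale with the control and by -0.83 with the methyltransferase plasmid. The difference was 2.70 ± 0.637 (adjusted p = 0.00457, edgeR's quasi-likelihood test). Its counts went from 412 and 415 to 46 and 45 with the control plasmid, a smaller fall than that of the listed counts. Whether it fell or rose with the control plasmid thus depends on the scaling. The same contrast on substituted shares, which does not depend on scaling, called no member.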

How the results depend on the processing

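Counts of member calls from levels moved with scaling. Total-count scaling gave 0 higher and 691 lower members in oxidized methyltransferase against oxidized control RNA, 730 higher and 6 lower with oxidation of control RNA, 168 higher with oxidation of methyltransferase RNA, and 0 higher and 578 lower for the difference in oxidation effect. Upper-quartile scaling gave 393 lower, 17 lower, 143 higher, and 2 higher and 217 lower in the same order. DESeq2 size factors gave 58 lower between the oxidized plasmids and 20 lower for the difference, and DESeq2's Wald test 39, 284 (higher with oxidation of control RNA) and 16. Requiring 5 counts in every library, chosen after the data were seen, tests fewer members and gave 1 higher and 3 lower, 25 higher and 18 lower, 8 higher and 17 lower, and 1 higher and 0 lower. Leaving out 1 library gave 16 to 148 lower between the oxidized plasmids, the lowest without the second oxidized methyltransferase library. It gave 290 to 472 higher with oxidation of control RNA, the lowest without the second non-oxidized control library, 3 to 32 higher with the methyltransferase, the lowest without the second non-oxidized methyltransferase library, and 23 to 62 lower for the difference, the lowest without the second oxidized methyltransferase library. In the pair test the members higher with oxidation of control RNA numbered 218 with the stricter minimum (20 per library, 100 substituted) and 46 to 368 with 1 library left out, and those lower 2 to 5. With oxidation of methyltransferase RNA leaving out a library gave 0 to 8 higher and 0 to 1 lower. The labels tie same-numbered libraries only by that number. Their deviations correlated at -0.031 to 0.37 over the 6 pairs of groups, above 0.1 in 3, and most between the 2 non-oxidized groups. Whether same-numbered libraries belong together is therefore not known. A replicate block gave 1 higher and 44 lower between the oxidized plasmids and 16 higher with oxidation of methyltransferase RNA, and changed no other count by over 1.5 times. The overall share in non-oxidized control RNA was 18% with interior substitutions only and 17.8% without members above their parent. In non-oxidized methyltransferase RNA these were 20.5% and 20.5%, and 21.8% with members of at least 50 counts. Other causes were not tested. Depth limits the pair test for the 363 members with 3 counts or fewer in both non-oxidized control libraries.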
